A study of Homo sapiens with 8 samples.

Results

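The ephrins and Eph receptors were followed as 10 genes, 4 ligand genes (EFNA1, EFNA3, EFNA4 and EFNB2) and 6 receptor genes (EPHA2, EPHA4, EPHB2, EPHB3, EPHB4 and EPHB6), taken by gene symbol from a list drawn up for this family. They are 10 of the 22 human Eph and ephrin genes examined, and they were chosen with earlier results of these data known. All 10 are listed for NCI-H716 and 9 for HCT116, because the HCT116 table used here ends on chromosome 9 and EFNB2, on chromosome 13, was not analysed in that line. RNA-seq was carried out on HCT116 and NCI-H716, which are both established colorectal cancer (CRC) cell lines, in 4 groups of 2 libraries each: HCT116 control, HCT116 with Z325, NCI-H716 control and NCI-H716 with Z325. Z325 (ZINC000101867325) is a small molecule that the study picked by docking as a candidate inhibitor of FGF receptors, and the comparison asks how each line's transcriptome responds to it. The treated libraries carry the word Test in their labels. About 100 cells went into each reaction. The labels name no vehicle for the controls and no dose or time for the RNA-seq, and each line is 1 cell model, so the 2 libraries of a group are replicates of a culture and not of tumours.

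Ephrins are ligands held at the cell surface, the A class through a lipid anchor and the B class through a membrane-spanning segment. Eph receptors are the largest family of receptor tyrosine kinases, and they bind ephrins on neighbouring cells, so that signals run forward into the receptor cell and in reverse into the ligand cell. In the intestine, EPHB2 and EPHB3 are known as WNT target genes of the crypt that keep proliferating and differentiated cells apart, and EPHA2 with EFNA1 is a well-studied pair in epithelial cancers.

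The 3 A-class ligand genes lie side by side on chromosome 1 (GRCh38, GENCODE v44), all on the plus strand. EFNA4 spans chr1:155063737-155069553, EFNA3 spans chr1:155078837-155087538 and EFNA1 spans chr1:155127876-155134899, with 9283 bases between EFNA4 and EFNA3 and 40337 between EFNA3 and EFNA1. The 250 bases before the RefSeq start of each (GRCh38.p14) are shown because these genes are neighbours. Their changes with Z325 in HCT116, described later, were not tested against each other. The windows are chr1:155063490-155063739 for EFNA4, chr1:155078587-155078836 for EFNA3 and chr1:155127626-155127875 for EFNA1, written 5′ to 3′ on the plus strand, with capitals for the motifs named after them.
EFNA4: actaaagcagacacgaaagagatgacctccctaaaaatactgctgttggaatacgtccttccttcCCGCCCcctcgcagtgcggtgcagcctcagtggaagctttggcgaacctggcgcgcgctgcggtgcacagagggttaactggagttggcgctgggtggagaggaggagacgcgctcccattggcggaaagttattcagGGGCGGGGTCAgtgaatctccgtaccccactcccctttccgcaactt
EFNA3: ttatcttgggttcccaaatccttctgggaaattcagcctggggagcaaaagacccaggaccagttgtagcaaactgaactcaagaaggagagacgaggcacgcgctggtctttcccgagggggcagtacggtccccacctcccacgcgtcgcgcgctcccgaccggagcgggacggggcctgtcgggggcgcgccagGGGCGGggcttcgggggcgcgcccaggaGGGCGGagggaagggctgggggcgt
EFNA1: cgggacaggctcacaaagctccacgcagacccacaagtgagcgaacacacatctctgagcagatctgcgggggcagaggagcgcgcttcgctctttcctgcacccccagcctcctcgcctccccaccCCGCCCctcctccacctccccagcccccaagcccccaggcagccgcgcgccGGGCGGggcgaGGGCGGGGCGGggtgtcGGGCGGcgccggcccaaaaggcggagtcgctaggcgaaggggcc
Capitals mark the GC box (GGGCGG) and the antioxidant response element core (TGACNNNGC), searched on both strands, so that CCGCCC is a GC box of the minus strand. EFNA1 holds 5 GC boxes, of which a pair overlap, EFNA3 holds 2 and EFNA4 holds 2. A GC box stands in 42.6% of the 35116 RefSeq promoter windows of this length. The response element core occurs 1 time in EFNA4, on the minus strand, where its letters overlap those of a GC box, and not in EFNA1 or EFNA3. It stands in 10.9% of all windows. Neither the E-box CACGTG (6.34% of windows) nor the AP-1 site TGANTCA (6.57%) was found in the windows of these 3 genes. All 10 genes matched a RefSeq promoter, and a match of letters is a description of the window only.

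Library totals ran from 3434620 counts (HCT116 Z325 replicate 2) to 19738840 (NCI-H716 Z325 replicate 2). The other 3 HCT116 libraries held 13183792 to 13396225 counts. A gene with 0 counts could still be present at up to 3 counts, which is 0.859 CPM (counts scaled to a common library size with TMM factors) in the shallow HCT116 library and 0.151 to 0.291 CPM in the other 7. These bounds, and the intervals on shares given later, cover counting error only. The epithelial marker EPCAM was at 1420 to 1660 CPM in HCT116 and 38.6 to 50.2 CPM in NCI-H716, and GCG, the hormone gene of enteroendocrine L cells, was at 1640 to 2540 CPM in NCI-H716 and at 0 in HCT116. These CPM were scaled within each line's own listed genes, so their sizes are not comparable between the lines. Of the 12 epithelial markers, 5 are in the HCT116 table, and CDX1, VIL1, GPA33 and CDH17 were at 0 to 6 counts there. In NCI-H716 the epithelial list summed to 767 to 932 CPM with CDX1 at 0 in all 4 libraries. CDH1 had 0 to 7 counts and KRT20 0 to 9. The 12 enteroendocrine genes summed to 3030 to 3480 CPM there, with PYY at 0 in all 4 and NEUROD1 at 0 to 1 counts. Leukocyte and endothelial lists reached at most 8.1 and 0.388 CPM in any library. The fibroblast list summed to 475 to 525 CPM in NCI-H716 and to at most 1.72 CPM in HCT116. In NCI-H716, COL3A1 gave 244 to 353 CPM and LUM 117 to 277. PDGFRA gave 1.15 to 4.01 CPM and COL1A2 0.229 to 2.52 there, and COL1A1, DCN and PDGFRB had 0 to 9 counts.

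**Figure D1:**
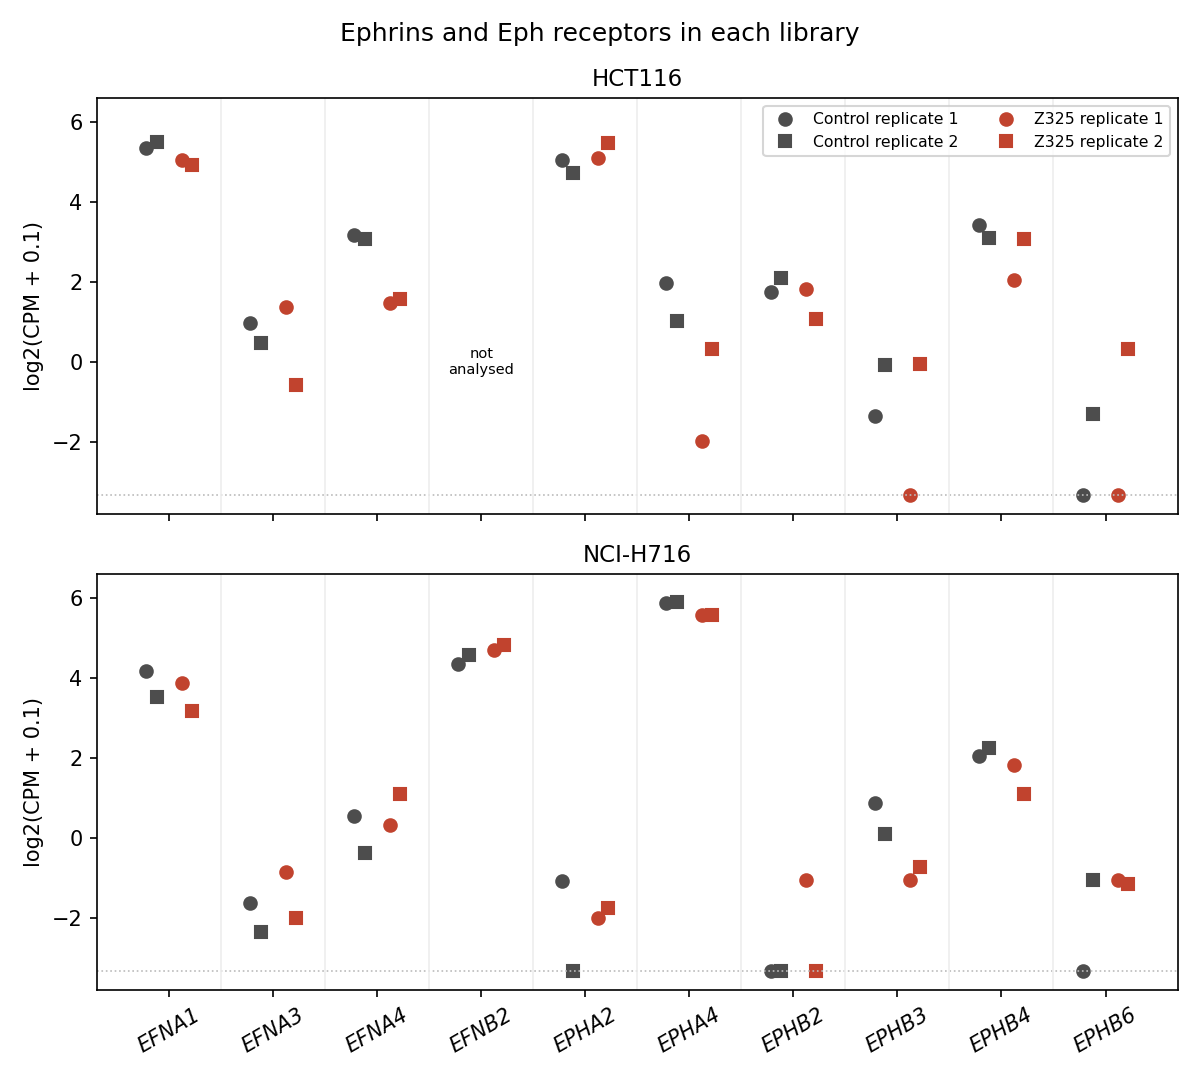
Level of each gene in each of the 8 libraries, as log2(CPM + 0.1) on the vertical axis, with controls in grey, Z325 in red, replicate 1 as circles and replicate 2 as squares. The dotted line is a count of 0. The grey and red symbols of EFNA4 in HCT116 stand well apart (8.28 and 8.9 CPM against 2.66 and 2.86), EPHA2 is high in HCT116 only and EPHA4 is the highest of the 10 in NCI-H716.

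Each line held EFNA1, EFNA4 and EPHB4 at a mean of at least 1 FPKM on its own scale. HCT116 FPKM was scaled to the listed genes only and NCI-H716 FPKM to all genes, so the cutoff differs between them. By TPM, EFNA4 (0.978) and EPHB4 (0.755) of NCI-H716 were below 1. On the genes listed for both lines, the lines stood apart most in EPHA2 and EPHA4 among the members. Per length, as FPKM averaged over the 4 libraries of a line, HCT116 held EFNA1 at 17.2, EPHA2 at 8.31, EFNA4 at 4.55 and EPHB4 at 1.24, and these were its only members with a mean of at least 1 FPKM. EFNA3 (0.799), EPHB2 (0.257), EPHA4 (0.238), EPHB3 (0.111) and EPHB6 (0.0689) followed. Neighbours in this order often overlapped over the libraries: EPHA2 ran from 6.25 to 10.9 FPKM and EFNA4 from 2.02 to 7.34, while EFNA1 stood above both at 14.3 to 20.5. EPHB4 (0.603 to 1.72) and EFNA3 (0.3 to 1.23) overlapped too, as did the 4 lowest genes.

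NCI-H716 was led by the receptor EPHA4, with a mean of 25.7 FPKM and 20.4 to 31.4 in single libraries, which overlapped with no other member on this scale. The ligands EFNA1 (10.7, from 7.44 to 13.9) and EFNB2 (6.7, from 5.46 to 7.72) came next and overlapped with each other. EFNA4 (1.33) and EPHB4 (1.01) also overlapped. EPHB3 and EPHB6 (both 0.228), EFNA3 (0.148), EPHA2 (0.0575) and EPHB2 (0.015) were the lowest. In the controls, EPHA4 stood at the 84.6th percentile of the protein-coding genes of NCI-H716 and at the 48th of those listed for HCT116, and EPHA2 stood at the 31.6th and the 73.8th. The deposited FPKM of NCI-H716 rests on a length that RSEM estimates for each library. With CPM per kilobase of annotated exon in its place, the first 3 genes kept their order but drew closer, at 7.08 for EPHA4, 6.1 for EFNA1 and 4.91 for EFNB2. EPHA4 (6.29 to 7.96) and EFNA1 (4.14 to 8.23) then overlapped.

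**Figure D2:**
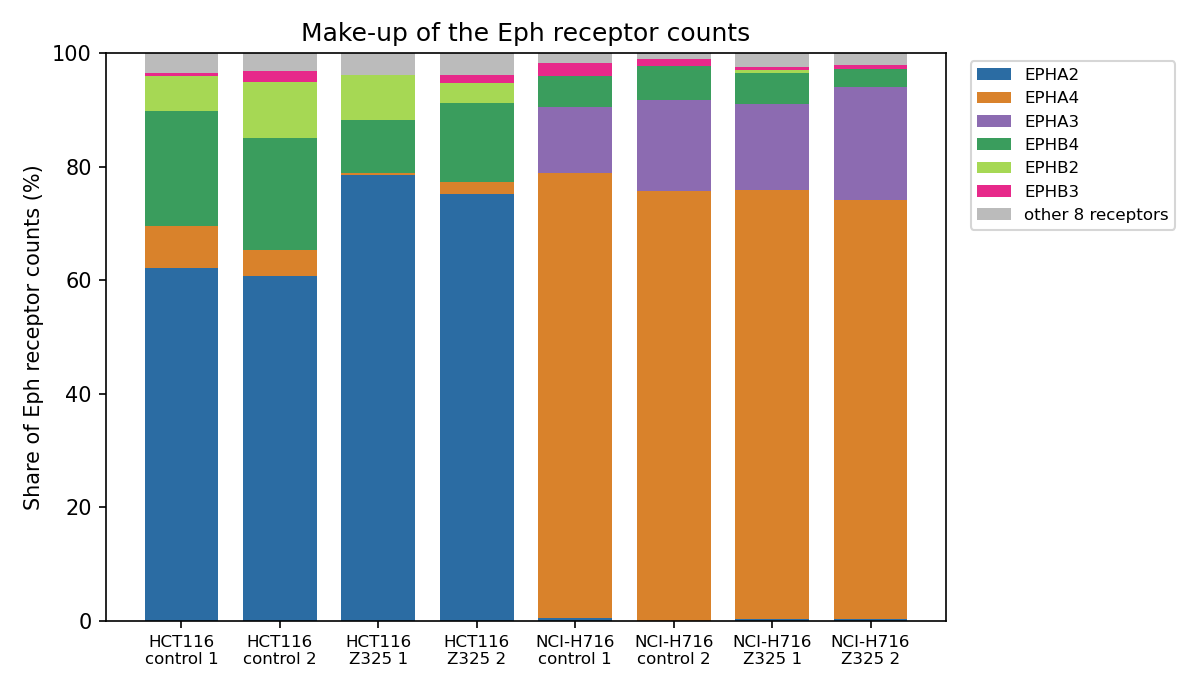
Share of all Eph receptor counts, in percent on the vertical axis, that each receptor took in each library, with 1 stacked bar per library and the 8 remaining receptors pooled in grey. EPHA2 filled 60.8% to 78.5% of the HCT116 bars and EPHA4 filled 73.8% to 78.3% of the NCI-H716 bars.

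Among the counts of all 14 Eph receptors, EPHA2 took 62.2% (Wilson 95% interval 58.6 to 65.6) and 60.8% (56.7 to 64.7) in the HCT116 controls, and 78.5% (74.9 to 81.7) and 75.2% (68.9 to 80.6) with Z325. EPHB4 was the second receptor there, at 20.3% and 19.8% in the controls and 9.32% and 14.1% with Z325. Both Z325 libraries thus lay above both controls for EPHA2 and below both for EPHB4, although neither gene passed the test given later. In NCI-H716 the order was EPHA4, then EPHA3, then EPHB4. EPHA4 took 78.3% and 75.7% in the controls and 75.7% and 73.8% with Z325. EPHA3, a receptor of A-class ephrins, took 11.6% to 19.9% in NCI-H716 and had 0 counts in all 4 HCT116 libraries. These shares are of counts and are not corrected for transcript length.

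On the genes that both tables list, EPHA2 ran from 25.9 to 45.1 CPM in HCT116 and from 0 to 0.878 in NCI-H716, and EPHA4 from 0.149 to 3.97 and from 107 to 138. The ranges of the 2 lines lay far apart for both receptors, in opposite directions. EFNA5, an A-class ligand outside the 10, ran from 2.65 to 6.9 CPM in HCT116 and from 69.3 to 113 in NCI-H716. The tables of the 2 lines were made separately, so these levels were not tested against each other.

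With Z325, no member passed an adjusted p under 0.05 in HCT116 in edgeR's quasi-likelihood test, in either direction, among the 8 that had enough counts to be tested. Over all 6491 genes tested, 2.94% were called lower and 2.83% higher. EFNA4 and EPHA4 had an unadjusted p under 0.05, both with lower values under Z325, and no member did so with higher values. That is 2 of 8, where 12.7% of all tested genes were lower and 11.2% higher at that threshold. The same 2 members also had a log2 fold change below -1.5, which 1.99% of all genes combined with that p. Because the members were chosen with earlier results of these data known, such counts describe them and are no test of the family. The log2 fold change was negative for 6 of the 8 members and positive for 2, with a median of -0.57. Over all tested genes the median was -0.03 and 51.8% were negative. DESeq2 called no member either, but gave no adjusted p for 4 of the 8 (EFNA3, EPHA4, EPHB2 and EPHB3). A change in RNA per cell and a change in the share of cells that express a gene cannot be told apart in these bulk libraries.

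EFNA4, an A-class ligand, gave the clearest difference. HCT116 held 123 and 108 counts in the controls and 34 and 10 with Z325, which is 8.9 and 8.28 CPM against 2.66 and 2.86. Both Z325 libraries lay below both controls, and the replicates of each group were close, with means of 8.59 ± 0.433 and 2.76 ± 0.146 CPM (SD, n = 2). The log2 fold change was -1.64 (SE 0.42, 95% interval -2.59 to -0.7), or 0.32 of the control level, with an adjusted p of 0.0574 in edgeR and 0.0584 in DESeq2. The call is close to the threshold and depends on the setting. The value ran from -1.7 to -1.32 over 14 alternatives. Among those that kept every HCT116 library, the adjusted p ran from 0.0257 to 0.124. It passed there with no filter (0.0257) and with at least 10 counts in every library (0.0297). The value was -1.6 without Z325 replicate 1 and -1.66 without the shallow Z325 replicate 2. EFNA4 is among the genes that the study itself displayed from these libraries, so its direction here is no independent evidence.

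The neighbouring ligand genes had smaller estimated differences, though the interval of EFNA3 includes the EFNA4 estimate of -1.64. EFNA1, the main ligand of EPHA2, had 40.6 and 44.9 CPM in the HCT116 controls and 32.9 and 30.4 with Z325. Both Z325 libraries were lower than both controls, and the log2 fold change was -0.43 (SE 0.22, interval -0.94 to 0.08, adjusted p = 0.282 in edgeR). EFNA3 had 1.88 and 1.3 CPM against 2.5 and 0.573, so that the Z325 libraries lay on either side of the controls. Its log2 fold change was 0.09 with an SE of 0.82, and its interval of -1.79 to 1.97 leaves a wide range of sizes. EFNA3 shares 853 exon bases (43.9%) and EFNA4 189 (15%) with the annotated EFNA4-EFNA3 readthrough transcript, to which no count was assigned in any of the 8 libraries, and how reads of the shared bases were assigned was not given, so both values are uncertain to that extent.

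**Figure D3:**
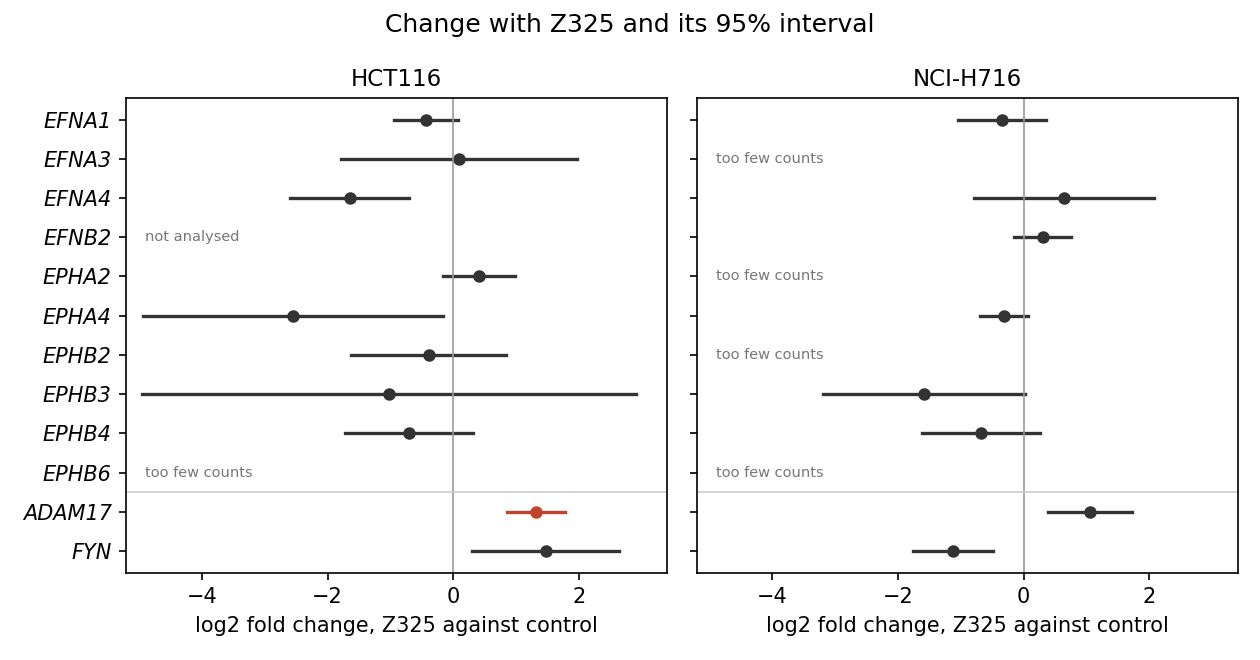
Log2 fold change of Z325 against control in each line (points, horizontal axis) with its 95% interval computed from the edgeR test (bars). The 10 genes are shown and, under the grey line, ADAM17 and FYN. Red marks an adjusted p under 0.05, which ADAM17 in HCT116 alone reached, and the HCT116 intervals of EFNA4 and EPHA4 lie below 0.

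The receptor genes lie apart from each other, EPHA2 at chr1:16124337-16156069 (minus strand), EPHB2 at chr1:22710839-22921500 (plus), EPHA4 at chr2:221418027-221574202 (minus), EPHB3 at chr3:184561785-184582408 (plus), EPHB4 at chr7:100802565-100827523 (minus) and EPHB6 at chr7:142855061-142871094 (plus), all in GRCh38. Their HCT116 values went both ways. EPHA2, the line's main receptor by counts, had 32.8 and 26.2 CPM in the controls and 34.3 and 44.4 with Z325. Both Z325 libraries were above both controls, but replicate 1 only by a small margin, and the log2 fold change was 0.41 (SE 0.25, interval -0.17 to 0.98, adjusted p = 0.377 in edgeR). EPHA4, a receptor that binds ephrins of both classes, was low in this line, with 53 and 25 counts in the controls and 2 and 4 with Z325. That is 3.83 and 1.92 CPM against 0.156 and 1.15, with no overlap. Its log2 fold change of -2.55 (SE 1.05, interval -4.94 to -0.16) had an adjusted p of 0.188 in edgeR, and it ran from -4.1 to -0.35 over 11 alternatives. Among the alternatives that kept every HCT116 library, it passed only with all 8 libraries in 1 edgeR fit (adjusted p = 0.0258). The value was -4.1 without the shallow Z325 replicate 2, -1.34 without Z325 replicate 1 and -1.81 without control replicate 1. A total of 353 of its exon bases (4.67%) lie opposite an antisense long noncoding RNA gene, which had at most 5 counts in any library.

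EPHB4, the receptor of EFNB2, had 10.7 and 8.51 CPM in the HCT116 controls and 4.07 and 8.31 with Z325. The second Z325 library lay just under the lower control, and the log2 fold change was -0.7 (SE 0.44, interval -1.72 to 0.31, adjusted p = 0.382 in edgeR). Without that library it was -1.21, and without Z325 replicate 1 it was -0.23. No alternative that kept every HCT116 library passed. EPHB2 had 3.25 and 4.22 CPM against 3.44 and 2.01, and its groups overlapped (log2 fold change -0.39, SE 0.54). The other crypt receptor, EPHB3, had 4 and 11 counts in the controls and 0 and 3 with Z325. Its log2 fold change was -1.02 (SE 1.72, interval -4.95 to 2.91, adjusted p = 0.785 in edgeR). The kinase-inactive EPHB6 had 0, 4, 0 and 4 counts, too few for the test. In all, both Z325 libraries lay below both controls for 4 of the 8 tested members (EFNA1, EFNA4, EPHA4 and EPHB4) and above them for 1 (EPHA2), where 29% and 24.8% of all tested genes did so.

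**Figure D4:**
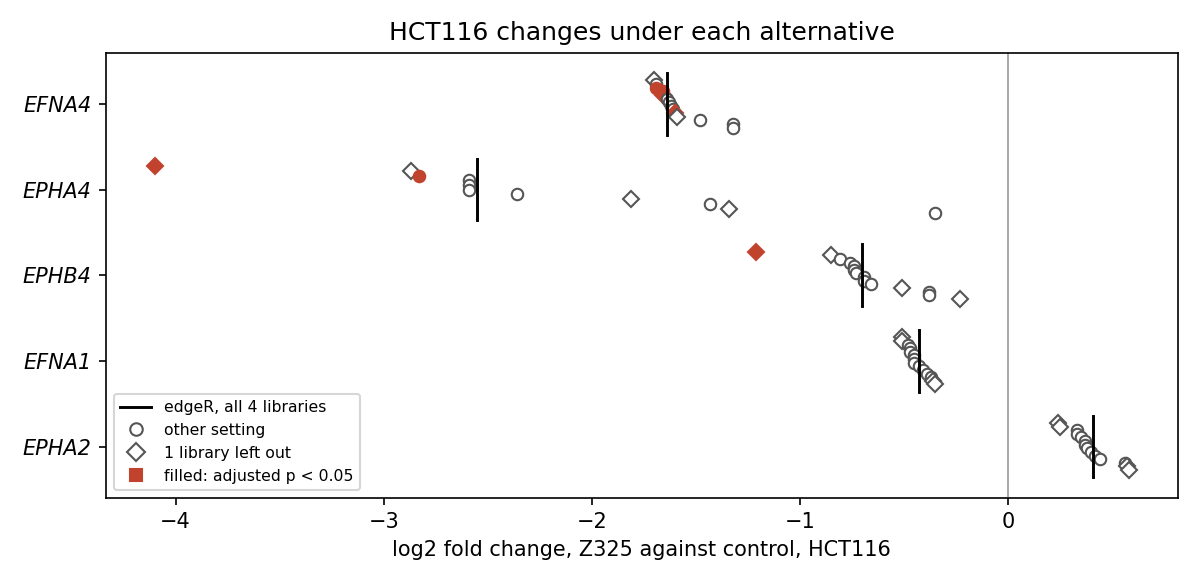
Log2 fold change of Z325 against control in HCT116 (horizontal axis) for the 5 genes whose groups did not overlap, under each alternative. The black line is the edgeR value with all 4 libraries, circles are other settings, diamonds leave out 1 library and filled red symbols have an adjusted p under 0.05. EFNA4 stays between -1.7 and -1.32, whereas EPHA4 spreads from -4.1 to -0.35.

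In NCI-H716, edgeR tested 6 of the 10 members and called none, and none had an unadjusted p under 0.05. DESeq2 called none of the 4 to which it gave an adjusted p, with none given for EFNA4 and EPHB3. Over the 14142 genes tested, edgeR called 14 lower (0.099%) and 57 higher (0.403%), where DESeq2 called 191 and 173, and at an unadjusted p under 0.05 the shares were 9.27% lower and 7.59% higher. The members' log2 fold changes had a median of -0.33, with 4 negative and 2 positive. Over all tested genes the median was -0.01 and 50.6% were negative.

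EPHA4, the leading receptor of this line, had 59.1 and 59.5 CPM in the controls and 48 and 47.5 with Z325. The replicates of each group nearly coincided and the groups did not overlap, and the log2 fold change was -0.31 (SE 0.17, interval -0.69 to 0.07, adjusted p = 0.381 in edgeR). EPHB3 had 1.74 and 0.97 CPM against 0.382 and 0.503, also without overlap. It rests on 23, 10, 5 and 10 counts, and its log2 fold change of -1.59 (SE 0.73, interval -3.2 to 0.02) had an unadjusted p of 0.0521 and an adjusted p of 0.299 in edgeR, and it ran from -1.93 to -0.26 over 11 alternatives. EPHB4 had 4.09 and 4.65 CPM against 3.44 and 2.06, with both Z325 libraries lower and a log2 fold change of -0.68 (SE 0.42, interval -1.62 to 0.26). It ran from -1.07 without Z325 replicate 1 to -0.33 without Z325 replicate 2. The difference from HCT116 was 0.02 with an interval of -1.41 to 1.44.

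The ligands of NCI-H716 had no shared direction. EFNB2, a B-class ligand at chr13:106489745-106535662 on the minus strand, had 20.4 and 23.8 CPM in the controls and 26 and 28.2 with Z325. Both Z325 libraries were above both controls, with a log2 fold change of 0.3 (SE 0.21, interval -0.16 to 0.75, adjusted p = 0.49 in edgeR). EFNB2 shares 1822 exon bases (36.4%) with an antisense long noncoding RNA gene that had 10, 9, 24 and 39 counts in the same order of libraries, and the sources used here do not say whether counting used strand. EFNA1 had 18.1 and 11.4 CPM against 14.7 and 8.9, and EFNA4 had 1.36 and 0.679 against 1.15 and 2.06. The groups overlapped for both, with log2 fold changes of -0.34 (SE 0.32) and 0.64 (SE 0.64).

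EFNA3 (1 to 6 counts), EPHA2 (0 to 5), EPHB2 (5 counts in 1 library and 0 in the other 3) and EPHB6 (0 to 7) were too low in NCI-H716 to be tested. Both Z325 libraries lay below both controls for 3 of the 6 tested members (EPHA4, EPHB3 and EPHB4) and above them for 1 (EFNB2), where 25.1% and 24.3% of all tested genes did so.

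To ask whether Z325 acted differently in the 2 lines, an interaction term (treatment by line) was fitted over all 8 libraries. It took in 8 members, but EFNA3, EPHA2 and EPHB2 entered through their HCT116 counts alone and were too low in NCI-H716 to be read there, which leaves 5. None passed an adjusted p under 0.05 in edgeR, where 0.0654% of the 7642 genes did, and EPHA4 and EFNA4 had an unadjusted p under 0.05, as did 14.3% of all genes. The effect on EPHA4 was higher in NCI-H716 than in HCT116 by 2.53 on the log2 scale (SE 0.72, interval 0.95 to 4.1). The adjusted p of this difference was 0.187 in edgeR, and in HCT116 EPHA4 rests on only 2 and 4 counts with Z325. Its adjusted p was 0.0321 with DESeq2, 0.0161 with no filter and 0.0376 without the shallow HCT116 Z325 replicate 2, the only 3 of 12 alternatives that passed, and it reached 0.542 at most. The difference itself was 3.78 without that library and 1.11 without HCT116 Z325 replicate 1. The difference for EFNA4 was 2.27 (SE 0.78, interval 0.55 to 3.98, adjusted p = 0.237), and it did not pass under any of 12 alternatives, whose adjusted p-values ran from 0.19 to 0.546 in those that gave one. For EFNA1 the effects of the 2 lines differed by 0.07, with an interval of -0.87 to 1.01.

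The other 12 genes of the family were mostly low. In HCT116, 9 of them are listed, and EFNA5 alone was tested, with 92 and 35 counts in the controls and 51 and 13 with Z325 (log2 fold change -0.27, SE 0.55). EPHA10, a receptor without kinase activity, had 22, 7, 2 and 0 counts and was not tested. EPHA3 had none, and EPHA1, EPHA5, EPHA6, EPHA7, EPHA8 and EPHB1 had 0 to 6 counts in any HCT116 library. In NCI-H716, 4 of the 12 were tested and none was called or had an unadjusted p under 0.05. EFNA5 had 45.4 and 49.1 CPM against 43.7 and 30.8 (log2 fold change -0.34, SE 0.21), and EFNB3 had 3.33 and 3.01 against 4.28 and 4.32 (0.44, SE 0.38). EFNA5 was lower in both Z325 libraries and EFNB3 was higher in both. EFNB1 (2.23 to 4.85 CPM) and EPHA3 (8.78 to 12.8 CPM) overlapped between the groups. The other 8 had 13 counts or fewer in every NCI-H716 library, among them EPHA10 with 13, 2, 9 and 10, EFNA2 with 1 to 4 and EPHA1 with 0 to 3.

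Signalling partners of the family were taken as a list of 63 genes, among them adaptors and kinases, partners of reverse signalling, and genes of phosphatases, proteases and protein turnover. In HCT116, 28 are listed and 24 were tested. ADAM17 was called higher and none was called lower in edgeR, and at an unadjusted p under 0.05 there were 2 in each direction. Of all tested genes, 2.83% were called higher and 2.94% lower, and 11.2% and 12.7% at the unadjusted p. The median log2 fold change was -0.03, equal to that of all tested genes, with 12 positive and 12 negative (51.8% of all tested genes were negative). The tested genes included 9 adaptors and kinases (median 0), 4 reverse-signalling partners (-0.1) and 4 genes of phosphatases, proteases and protein turnover (0.37). The adaptor NCK2 counts in 2 classes.

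ADAM17, a membrane protease that sheds surface proteins, rose with Z325 in HCT116. It had 382 and 401 counts in the controls and 961 and 244 with Z325, which is 27.6 and 30.8 CPM against 75.2 and 69.9. Both Z325 libraries lay far above both controls, and the log2 fold change was 1.31 (SE 0.2, interval 0.85 to 1.78, adjusted p = 0.013 in edgeR). The call was kept in 9 of 14 alternatives and was lost in 3 limma fits (adjusted p = 0.0897 to 0.104) and without either control replicate (0.136 and 0.146), and its smallest adjusted p was 1.24e-06. NCI-H716 had 7.72 and 5.14 CPM against 15.5 and 11.6, with both Z325 libraries higher, a log2 fold change of 1.06 (SE 0.3) and an adjusted p of 0.155 in edgeR. There, among alternatives that kept every NCI-H716 library, the adjusted p ran from 0.000718 to 0.4. No filter (0.0261) and the replicate block (0.000718, on 2 pairs of libraries) passed. With 1 library left out the value ran from 0.82 to 1.4. The effects of the lines differed by -0.28 (interval -1.11 to 0.56). A share of 10.3% of its exon bases lies opposite the gene IAH1. The main protease known to cut ephrins, ADAM10, is not on the chromosomes of the HCT116 table.

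In NCI-H716, 52 partners were tested and edgeR called none. At an unadjusted p under 0.05 there were 4 with higher and 4 with lower values, beside 7.59% and 9.27% of all tested genes. Their median log2 fold change was 0.14, with 32 positive and 20 negative, against -0.01 and 50.6% negative over all tested genes. DESeq2 called 1 in each direction. The smallest adjusted p belonged to the adaptor GRB10, with 27.4 and 32.2 CPM in the controls and 58.8 and 55 with Z325 (log2 fold change 0.93, adjusted p = 0.0665). FYN, a SRC-family kinase recruited by Eph receptors and by ephrin clusters, had 42.4 and 40.1 CPM against 25.3 and 12.9 (-1.12, adjusted p = 0.124). Over 14 alternatives the value for FYN ran from -1.67 without Z325 replicate 1 to -0.69 without Z325 replicate 2. Among those that kept every NCI-H716 library, it passed with DESeq2 (0.0215), no filter (0.000485) and the replicate block (8.97e-10). The block rests on 2 pairs of libraries. For GRB10 and FYN alike the groups did not overlap. The actin-severing protein gene CFL1 had 375, 134, 100 and 35.3 CPM (-1.91, adjusted p = 0.128), with control values far apart, and the adaptor GRB7 had 2.42, 2.72, 0.305 and 1.11 CPM (-1.79, adjusted p = 0.229).

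FYN differed in direction between the lines. In HCT116 it had 3.33 and 1.76 CPM in the controls and 6.02 and 8.31 with Z325, above both controls (log2 fold change 1.47, SE 0.51, adjusted p = 0.129), whereas both Z325 libraries of NCI-H716 lay below both controls. The interaction was -2.56 (SE 0.54, interval -3.75 to -1.38), with an adjusted p of 0.0935 in edgeR and 0.000417 in DESeq2. Over 13 alternatives its adjusted p ran from 0.000288 to 0.355, and 3 of them passed. FYN was singled out for this comparison after its values were seen.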

How the data were processed

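Libraries were prepared from about 100 cells per reaction by full-length cDNA amplification. For HCT116 the authors deposited raw read counts per gene, with gene length, in 1 table. It ends on chromosome 9, and of 28047 lines 4 broken ones were left out, so that 28043 genes were used (43.5% of protein-coding genes). For NCI-H716 the authors deposited RSEM output per library (FPKM, TPM and expected counts) for 63241 genes, of which 62666 were given a symbol through GENCODE v44. The submitters' processing notes name Bowtie2 2.5.0, featureCounts and hg38, and the paper's methods name STAR and RSEM. HCT116 FPKM and TPM were computed here from the counts, lengths and listed totals. Strandedness of counting and the treatment of shared reads were not given in the sources used here.

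Expected counts were rounded. Each line was fitted in edgeR 4.0.16 (R 4.3.3) with TMM factors (0.956 to 1.04), filterByExpr, the quasi-likelihood test on treatment alone and Benjamini-Hochberg adjustment over all tested genes. edgeR put the biological variation at 0.245 (HCT116) and 0.203 (NCI-H716) as a coefficient. The interaction was fitted on the genes of both tables. Fold changes used a prior count of 0.125. For the edgeR fits, SEs were computed here as the absolute log2 fold change over the square root of the F statistic. The 95% intervals were computed from these SEs with the t distribution at the degrees of freedom of the test. Nothing shows that the replicates of a group came from separate experiments beyond the study's description as biological duplicates, so p-values measure the spread between these libraries. With 2 against 2, an exact permutation test of a single value cannot go below p = 0.333 and none was used. Whether replicate numbers pair the libraries is not stated, and 2 pairs a line are too few to decide it (correlation of deviations -0.0246 in HCT116 and 0.287 in NCI-H716), so the block was an alternative.

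Alternatives were DESeq2 1.42.0, library size alone, no filter, at least 10 counts in every library, limma 3.58.1 on log2(FPKM + 1), on log2(FPKM + 0.1) and with a mean FPKM of at least 1, a replicate block, all 8 libraries in 1 fit, thinning to the shallowest library and leaving out each library. Ordering by CPM per kilobase of exon was added after the data were seen. Scripts were tested on simulated data. The members and gene lists were chosen with earlier results of these data known. All members and all other family genes were named, and of the partner genes those called in a line and otherwise up to 5 per line with the smallest adjusted p. One class of partner genes is not reported here on its own. Python 3.11.15, pandas 2.3.3 and matplotlib 3.10.9 were used.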

Additional observations from a re-analysis of the deposited data

How the results depend on the processing

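Of 468 combinations of 37 results and an alternative, 388 kept their direction and their side of the threshold, or gave an equal count. Another 7 kept their direction but had no adjusted p from DESeq2, and 2 counts changed by no more than 1.5 times. In HCT116 the number of members called lower, 0 with all libraries in edgeR, was 1 with no filter, 1 with at least 10 counts in every library, 1 with all 8 libraries in 1 fit and 0 to 3 when 1 library was left out. The 3 were EFNA4, EPHA4 and EPHB4, without Z325 replicate 2, and the 1 without Z325 replicate 1 was EFNA4. Members differing between the lines, 0 in edgeR, numbered 1 (EPHA4) with DESeq2 and 1 with no filter, and 0 to 1 when a library was left out, the 1 being without HCT116 Z325 replicate 2. Members with a mean of at least 1 numbered 4 in HCT116 by FPKM and 7 by CPM, and 5 in NCI-H716 by FPKM and 3 by TPM.

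Some estimates changed sign under an alternative, and not all of them were near 0 or rested on few counts. NCI-H716 EFNA1, at -0.34, had 118 to 239 counts. HCT116 EFNA3 (0.09) was -0.10 and -0.33 in limma with pseudocounts of 1 and 0.1, -0.19 with a replicate block, and -1.47 to 0.67 with 1 library left out. HCT116 EPHB3 ran from -5.91 to 0.59 and NCI-H716 EFNA1 from -0.73 to 0.04 with 1 library left out. The interaction of EFNA1 was -0.02 with DESeq2, -0.01 with at least 10 counts and -0.29 to 0.5 with 1 library left out, that of EPHB4 was -0.09, -0.05 and -0.38 to 0.54, and that of ADAM17 ran from -0.52 to 0.12. The cause was not tested.

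The replicate block called 0 members in each line and 0 in the interaction. Of the 52 partner genes tested in NCI-H716 it called 4 higher and 4 lower, where edgeR without it called 0, among them FYN (-1.18, adjusted p = 8.97e-10) and ADAM17 (1.08, adjusted p = 0.000718). These p-values rest on 2 pairs of libraries, and the same fit called many more genes over all. Over all genes it called 177 higher and 204 lower in HCT116 (184 and 191 without it), and 1061 and 1336 in NCI-H716 (57 and 14). Calls over all genes also moved with DESeq2 (403 and 364 in HCT116, 173 and 191 in NCI-H716), with no filter (260 and 423, 290 and 487), with limma on log2(FPKM + 1) (29 and 18, 5 and 1), on log2(FPKM + 0.1) (22 and 15, 5 and 1) and with a mean FPKM of at least 1 (23 and 12, 5 and 3), with at least 10 counts (270 and 345 in HCT116), with library size alone (71 and 28 in NCI-H716), with all 8 libraries (17 and 2 in NCI-H716) and with 1 library left out (15 and 29 without control replicate 1, 17 and 6 without control replicate 2, 438 and 533 without Z325 replicate 1 and 514 and 562 without Z325 replicate 2 in HCT116, and 31 and 7, 76 and 149, 502 and 884 and 115 and 107 in that order in NCI-H716). The interaction gave 4 higher and 1 lower in NCI-H716 with edgeR, 57 and 80 with DESeq2, 58 and 48 with no filter, 11 and 15 with at least 10 counts, 8 and 4 with the replicate block, and from 0 and 0 to 37 and 24 with 1 library left out. EPHA4, EPHB3 and EPHB6 in HCT116 and EFNA3, EPHA2, EPHB2 and EPHB6 in NCI-H716 rest on few counts. EFNA3 in HCT116 had 2 counts in the shallow library. Whether depth or low abundance set these counts was not tested. Under no filter, the untested members had log2 fold changes with SEs of 1.52 to 3.41.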
